A study of Ovis aries and Mus musculus with 10 samples.

Results

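The miRNA content of the mouse mammary gland was compared between virgin animals and gestation day 10. All 164 mouse miRNAs that the scanner software called detected on at least 1 of these 2 arrays were taken, out of 567 mouse miRNAs with probes on the array (28.9%). Of the 164, 142 were detected on both arrays, 8 on the virgin array alone and 14 on the day 10 array alone, and 403 miRNAs were detected on neither. Both samples were snap-frozen mammary tissue of CD1 mice, an outbred stock, with no treatment. The labels name the stage of each sample and give neither the age of the mice, the number of animals behind an array, nor the gland taken. The wider series holds 10 arrays of mouse and sheep mammary gland, each of a different stage and day. With 1 array a side the difference has no replicate check, so no test was possible and no p-value is given. Values describe these 2 samples.

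miRNAs are short RNAs that guide Argonaute proteins to matching sites in messenger RNAs, which are then repressed. They are cut from hairpin precursors, and hairpins that lie close together on a chromosome are often transcribed together. In pregnancy the mammary epithelium branches and forms alveoli within a fat pad that also holds fibroblasts, blood vessels, nerves and immune cells, and muscle of the body wall and skin lies next to the gland. Some miRNAs are so enriched in a cell type that they serve as its markers in a tissue extract: miR-1 and miR-133 striated muscle, miR-451 and miR-144 red cells, and the miR-200 family epithelium. In whole tissue, fewer cells of a type and less RNA per cell cannot be told apart.

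The virgin and day 10 arrays sat on the same slide, and the other 3 mouse arrays (gestation day 17 and lactation days 2 and 10) on another slide. Raw processed signal, in arbitrary fluorescence units, was similar on both arrays. Among 94 miRNAs that every array of the series detected, the 75th percentile was 598 in virgin gland and 702 at day 10. Negative control spots averaged 2.42 ± 3.33 (SD over spots) and 3.00 ± 3.75, no spot of these miRNAs was saturated, and 134 miRNAs were well above background on each array. Levels below are log2 values of the signal divided by that percentile, so 0 is the percentile itself, and values under a floor of -5.11 were set to it. A difference is the log2 level at day 10 minus that in virgin gland, and its standard error (SE) covers the spots within the 2 arrays only. Detection did not follow signal strictly: the dimmest detected miRNA, miR-712, had signals of -0.036 and -0.55, whereas the brightest undetected one, miR-149, had 7.31 and 10.1.

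The tissue markers fitted the label. All 5 members of the miR-200 family and the endothelial miR-126-3p were detected on both arrays, and the hepatocyte miRNA miR-122 was detected on neither. The other endothelial miRNA listed, miR-126-5p, was not detected on these arrays either. Of 7 neural miRNAs, miR-128 and miR-218 were detected, with log2 differences of 0.00 and -0.06. Muscle and red cell miRNAs were also well above background in virgin gland, as described next.

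Most miRNAs had nearly the same level in virgin and day 10 gland, and the exceptions were few and grouped. The median difference over all 164 was 0.07 on the log2 scale, with quartiles of -0.06 and 0.34, and 129 miRNAs (78.7%) differed by less than 1.5-fold. At day 10, 9 miRNAs were at least 2-fold lower (5.49%) and 6 were at least 2-fold higher (3.66%). The 9 lower ones were 4 striated muscle miRNAs (miR-1, miR-133a, miR-133b and miR-206), 3 red cell miRNAs (miR-451, miR-144 and miR-486), and miR-494 and miR-184. The 6 higher ones were miR-205, miR-96 and miR-183, which are all epithelial miRNAs, together with miR-196a, miR-801 and miR-689. Of the 9 lower miRNAs, 7 lay at the floor at day 10, and 1 of the 6 higher ones (miR-183) lay at the floor in virgin gland, so their differences depend on where the floor is set. Across the 164 miRNAs the levels on the 2 arrays had a Pearson r of 0.925, a description over miRNAs that share 2 arrays and a floor.

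**Figure D1:**
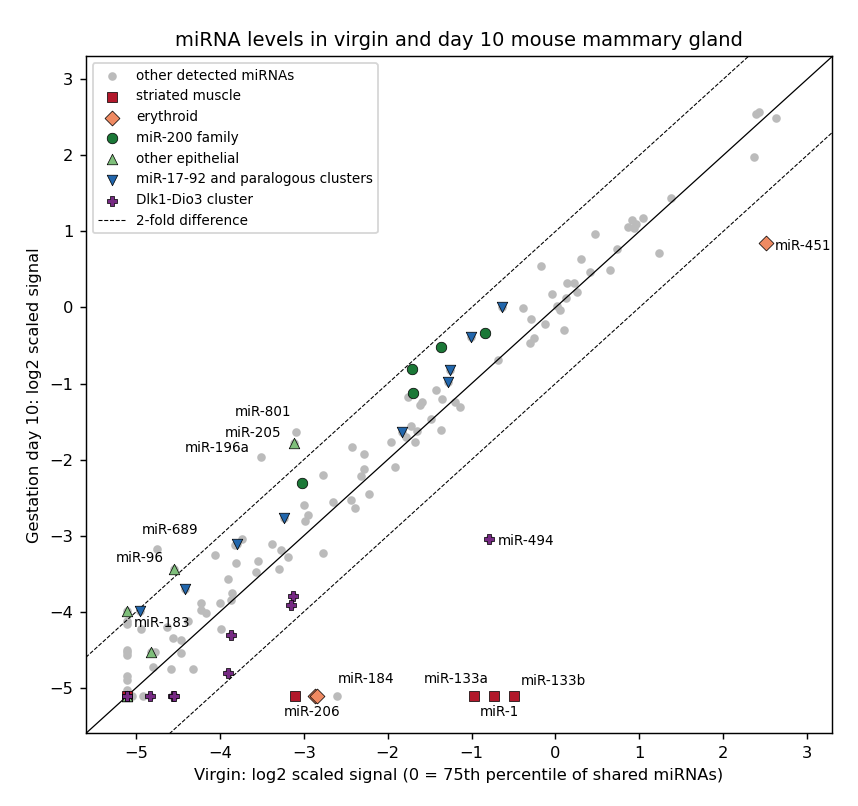
Each point is 1 of the 164 detected miRNAs, with its log2 scaled signal in virgin gland on the horizontal axis and at gestation day 10 on the vertical axis; the solid line marks equal levels and the dashed lines a 2-fold difference. The muscle and red cell miRNAs lie below the band, with most of them on the floor of -5.11 at day 10, except miR-133a*, which is at the floor on both arrays. The miR-200 family lies above the line of equality within the band.

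miR-1, miR-133a and miR-133b, which govern differentiation and contraction in heart and skeletal muscle, had the largest differences of the 164. The signal of miR-133b was 423 in virgin gland and 9.75 at day 10, that of miR-1 was 360 and 4.92, and that of miR-133a was 305 and 7.31. None of these day 10 signals was well above background, so the differences are bounds: miR-133b was at least 19.97-fold lower, miR-1 at least 17.0-fold lower and miR-133a at least 14.4-fold lower. With the floor, the log2 differences came to -4.61, -4.38 and -4.14. miR-206, which is found in skeletal muscle and not in heart, gave 69.2 in virgin gland and -9.72 at day 10, at least 3.27-fold lower. In this bound, as in the others, the lower signal is replaced by that of the dimmest single probe well above background on its array (24.7 in virgin gland and 24.9 at day 10).

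The probes for miR-133b and miR-206 match positions within 10 kb of each other on chromosome 1 of the mm9 build, at chr1:20672918-20672936 and chr1:20669142-20669157. The minor arm miR-133a* was called detected but lay at the floor on both arrays. The heart muscle miRNAs miR-208a, miR-208b and miR-499 were detected on neither array. Of the 8 muscle miRNAs on the array, 5 were therefore detected. Of these, 4 were at least 2-fold lower at day 10, against 5.49% of all 164, and none was higher. Their median difference was -4.14, against 0.07 over all detected miRNAs, and -1.25 after normexp background correction, which adds an offset of 50 to every signal.

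The muscle miRNAs did not follow the order of the stages. miR-133b lay at -0.50 in virgin gland, at the floor at gestation day 10, at -1.93 at gestation day 17, and at the floor on both lactation arrays. miR-1 followed the same sequence, with -0.73 in virgin gland and -1.66 at gestation day 17, and so did miR-133a, with -0.97 and -2.80. The summed scaled signal of the detected muscle miRNAs was 1.95 in virgin gland, 0.0313 at gestation day 10, 0.761 at day 17, and 0.0351 and 0.0201 at lactation days 2 and 10. The muscle miRNAs thus stood high on 2 of the 5 mouse arrays. How much skeletal muscle each sample held was not recorded in the labels, and the part of muscle tissue in the other differences was not tested.

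**Figure D2:**
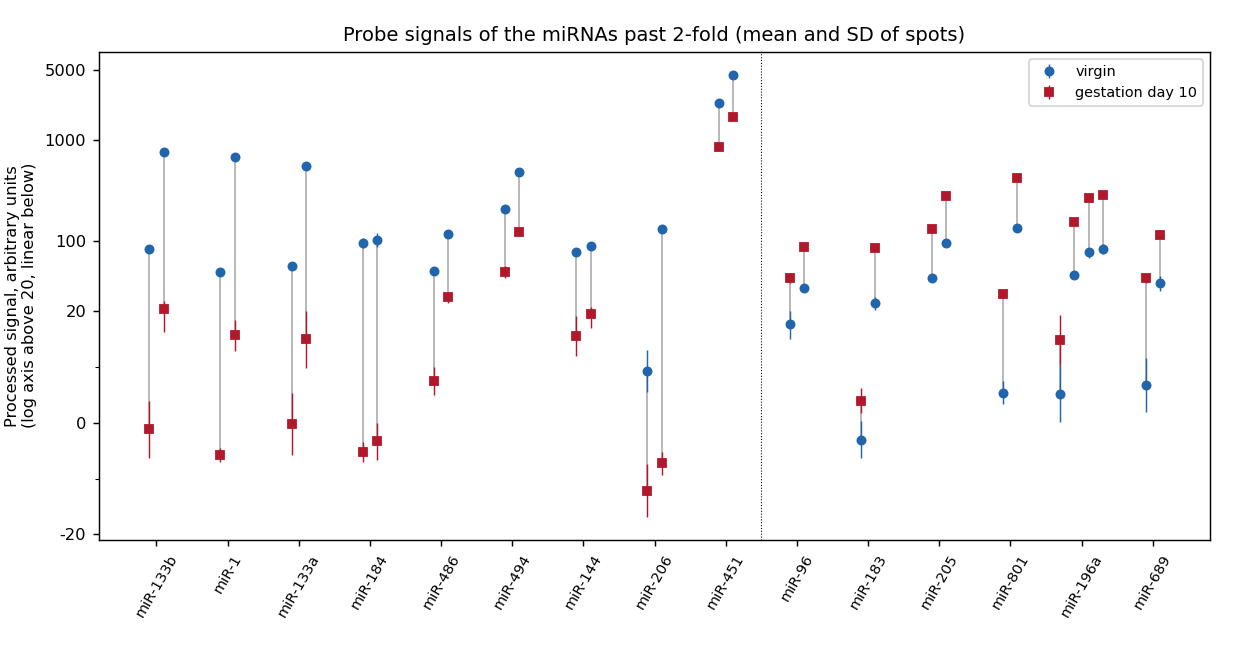
Processed signal of each probe for the 15 miRNAs past 2-fold, in arbitrary units on an axis that is linear below 20 and logarithmic above; circles are virgin, squares gestation day 10, and bars the SD over the spots of a probe within an array. For miR-133b, miR-1 and miR-133a both probes are well above background in virgin gland and not at day 10, and for miR-451 both probes lie far above background on both arrays.

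miR-451, a miRNA of the red cell lineage that is matured by Ago2 without Dicer, was among the brightest miRNAs of virgin gland and was measured well above background on both arrays. Its signal was 3403 in virgin gland and 1268 at day 10, a log2 difference of -1.66 ± 0.007 (SE) or 3.15-fold. Its 2 probes gave -1.69 and -1.64. miR-144, from the same precursor transcript, gave 82.3 and 17.5 and was at least 3.89-fold lower. The 2 lie next to each other on chromosome 11, with probe targets at chr11:77886549-77886568 for miR-144 and chr11:77886688-77886709 for miR-451 in mm9. miR-486, abundant in red cells and also in muscle, gave 83.2 and 17.3. The floored log2 difference of miR-486 was -2.26, and -2.33 from the 1 probe that was above background on both arrays.

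All 3 red cell miRNAs on the array were thus at least 2-fold lower at day 10, against 5.49% of all 164, with a median of -2.25. miR-451 kept its direction under every alternative, from -2.51 to -1.42. After normexp, miR-144 and miR-486 lay at the floor of that setting on both arrays, so their differences and the median of the 3 came to 0. Across the 5 mouse stages miR-451 was at 2.51, 0.85, 0.72, 1.33 and 1.94, highest in virgin gland and lowest at gestation day 17. miR-144 was at -2.86, the floor, -4.38, -4.08 and -3.67, lowest at gestation day 10. miR-486 was at -2.85 in virgin gland, at the floor on both gestation arrays, and at -5.01 and -4.23 in lactation. The 3 were thus all highest in virgin gland but differed in their lowest array. The leukocyte miRNAs did not go the same way. miR-223, of granulocytes and monocytes, had signals of 233 and 306 and a difference of 0.16. miR-142-3p, of blood-forming lineages, had 75.8 and 101 and a difference of 0.18. miR-342-3p was at 0.56 and miR-146a at 0.26, and miR-155 lay at the floor on both arrays. miR-142-5p, miR-150 and miR-342-5p were not detected, and none of the 5 detected leukocyte miRNAs was past 2-fold, against 9.15% of all 164. The part of blood left in the tissue was not tested.

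miR-494 and miR-184 were the other lower miRNAs. miR-494, one of the many miRNAs of the imprinted Dlk1-Dio3 locus that are made from the maternal chromosome, had signals of 344 and 85.1, a difference of -2.25 ± 0.029, with -2.29 and -2.23 from its 2 probes. Its probe target lies at chr12:110953584-110953598 in mm9. miR-184, known from the eye and from neural and epidermal cells, gave 98.6 in virgin gland and -4.28 at day 10, at least 4.66-fold lower, and lay at the floor on the other 3 mouse arrays. miR-184 was therefore measured in virgin gland alone. The target of its probe is at chr9:89697101-89697122.

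Of the 35 miRNAs listed here for the Dlk1-Dio3 locus, 12 were detected. The list did not hold every miRNA of the locus on the array. The minor arm miR-299*, whose probe target lies among theirs, was detected but is outside the list. Its difference was -0.53, with the floor at day 10. None of the 12 was above 0: 8 were below 0 and 4 lay at the floor on both arrays, against 44 below 0 among all 164 detected miRNAs (26.8%). After miR-494 came miR-300 with -0.91 ± 0.067 (signals of 40.1 and 25.1), just short of 2-fold. miR-379 followed at -0.76 ± 0.032 (67.4 and 46.7), miR-127 at -0.66 ± 0.032 (68.1 and 50.6), miR-434-3p at -0.56 and miR-410 at -0.55. miR-127 is known for targeting its own antisense partner, the retrotransposon-derived gene Rtl1. The median of the 12 was -0.49, or 0 after normexp, and without the floored ones the values ran from -2.25 to -0.28. Apart from miR-494 these were dim miRNAs: miR-127 was the brightest of them in virgin gland, and miR-434-3p (25.6 and 18.6) and miR-410 (25.3 and 15.7) lay at the floor at day 10. miR-494 stood apart from its neighbours along the stages too, with -0.80, -3.05, -1.03, -1.45 and -1.58 from virgin to lactation day 10. The day 10 value was the low one.

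Of the epithelial miRNAs, all 5 of the miR-200 family were above 0 without reaching 2-fold. Of 10 others 6 were detected and 3 were past 2-fold higher, against 3.66% of all 164. The miR-200 family represses the transcription factors ZEB1 and ZEB2 and so holds cells in the epithelial state. It comes from a pair of clusters, miR-200b, miR-200a and miR-429 on chromosome 4 and miR-200c and miR-141 on chromosome 6. miR-200b had signals of 233 and 491, a difference of 0.85 ± 0.022. miR-429 had 182 and 402, a difference of 0.91 ± 0.019, and miR-200a had 73.6 and 142, a difference of 0.72 ± 0.033. On chromosome 6, miR-141 had 184 and 322, a difference of 0.58 ± 0.017, and miR-200c had 334 and 556, a difference of 0.50 ± 0.032.

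Of all 164, 92 were above 0 (56.1%), or 92 of the 136 above the floor on at least 1 array. The median of the 5 miR-200 miRNAs was 0.72. The 3 members on chromosome 4 ran from 0.72 to 0.91 and the 2 on chromosome 6 from 0.50 to 0.58. This order did not hold under every setting: with quantile normalization miR-141 was above miR-200b, with normexp it was above miR-200a, and 1 probe of miR-141 (0.73) was above 1 of miR-200a (0.71). The authors' own array-wide scaling turned the median of the family to -0.14, but it lowered every miRNA, to a median over all 164 of -0.64. Relative to the median of all miRNAs the family stayed between 0.45 and 0.72 under every setting tried. From virgin gland to lactation day 10, miR-200c was at -0.84, -0.34, 0.67, 1.64 and 2.08, and miR-200b at -1.36, -0.52, 0.56, 1.45 and 2.18. The day 10 level of both lay between virgin gland and the later stages. miR-429 was at -1.72, -0.80, -0.13, 0.26 and -0.40 and did not go on to lactation day 10 in the same way.

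miR-205, enriched in basal and stem-like mammary epithelial cells, had the largest difference of the epithelial miRNAs. Its signal was 68.8 in virgin gland and 204 at day 10, a log2 difference of 1.34 ± 0.023 or 2.53-fold, and its 2 probes gave 1.33 and 1.37. The probe target is at chr1:195333697-195333712 in mm9. miR-205 was at -3.12, -1.78, -1.0, -2.50 and -2.88 along the 5 stages, so both gestation arrays stood above the virgin and lactation ones. This course was unlike that of the miR-200 family.

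miR-96, miR-182 and miR-183 are made from a shared precursor and are best known from sensory organs and from epithelial tumours. miR-96 had signals of 25.5 and 64.7, a difference of 1.11 ± 0.042. miR-183 had 10.4 and 44.2 and was at least 1.53-fold higher, with 1.12 against the floor. miR-182 lay at the floor on both arrays. The probe targets of miR-96 and miR-183 lie at chr6:30119506-30119527 and chr6:30119711-30119729. miR-96 was at -4.55, -3.44, -1.94, -1.10 and -0.59 along the stages, each above the one before. miR-203, of differentiating epidermis, had 21.1 and 30.5, a difference of 0.30 ± 0.081, and miR-192, of gut and kidney, lay at the floor on both arrays. Of 10 miRNAs in this further epithelial list, 6 were detected, with a median of 0.71. Of these 6, 3 were past 2-fold higher, against 3.66% of all 164, and none was lower. miR-31, miR-375, miR-194 and miR-215 were not detected. After normexp, miR-96 and miR-183 lay at the floor of that setting on both arrays, so their differences came to 0. The median of the list also came to 0. By contrast, miR-205 stayed above 0 under every alternative, from 0.48 to 1.57.

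**Figure D3:**
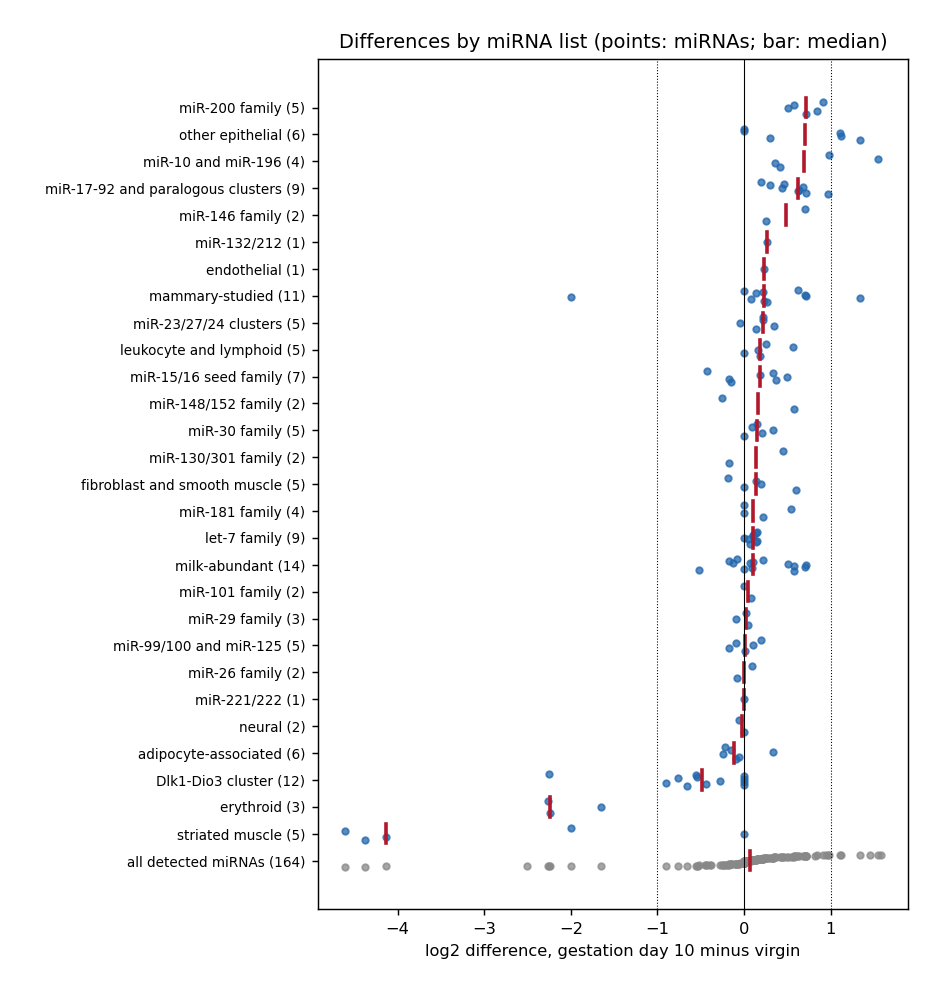
Log2 difference (gestation day 10 minus virgin) of each detected miRNA by list, with the number detected in brackets, bars at the list medians and dotted lines at 2-fold; some miRNAs are in more than 1 list. The muscle and red cell lists lie far below 0, except miR-133a* of the muscle list, which is at 0. The miR-200 family and miR-17-92 lists lie wholly above 0, and let-7 lies within 0.15 of 0.

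The miR-17-92 cluster and its paralogs, which promote proliferation and are induced by MYC and E2F factors, were higher at day 10 by less than 2-fold. Of all 164 miRNAs 92 were above 0 (56.1%), and these 92 were among the 136 above the floor on at least 1 array. Of 13 miRNAs listed for these clusters 9 were detected, and all 9 were above 0, with a median of 0.62. Their range was 0.19 to 0.97. The minor arm miR-17*, on chromosome 14 and outside the list, was detected at day 10 but lay at the floor on both arrays. The largest difference came from the miR-17-92 hairpins on chromosome 14. miR-18a had signals of 19.2 and 44.3, a difference of 0.97 ± 0.062. miR-19b had 385 and 704, a difference of 0.64 ± 0.022, and miR-20a had 298 and 538, a difference of 0.62 ± 0.030. miR-19a was at 0.72 and miR-92a at 0.44. From the paralogous cluster on the X chromosome miR-20b was at 0.69 ± 0.034.

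The miR-106b cluster of chromosome 5 held the smallest difference of the list, with miR-93 at 0.47, miR-106b at 0.30 and miR-25 at 0.19. miR-17, miR-106a, miR-18b and miR-363 were not detected. The authors' scaling turned the median of the 9 to -0.23. Relative to the median of all miRNAs the list stayed above 0 under every setting, from 0.16 with normexp to 0.60. miR-19b was at -0.63 in virgin gland and 0.00 at day 10.

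miR-196a and miR-196b lie within the Hox gene clusters and repress Hox genes such as Hoxb8. miR-196a had signals of 52.3 and 179, a difference of 1.55 ± 0.049, and its 3 probes above background gave 1.52 to 1.56. Its probe target is given at chr11:96126501-96126522, in the Hoxb cluster. miR-196b, with a target at chr6:52180128-52180147 in the Hoxa cluster, had 17.2 and 40.3 and a difference of 0.98 against the floor. The related Hox cluster miRNAs were closer to equal. miR-10a had 74.6 and 116, a difference of 0.41, and miR-10b had 123 and 185, a difference of 0.36.

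miR-196a was at -3.52 in virgin gland, -1.97 at day 10 and -3.53 at gestation day 17, and it was at -4.35 and at the floor in lactation. miR-196b was above the floor on the day 10 array alone of the 5. Day 10 was therefore the high array for both. Of these 4 miRNAs 1 was past 2-fold higher, against 3.66% of all 164, and their median was 0.70. The authors' scaling turned that median to -0.16, while miR-196a itself stayed above 0 under every alternative, from 0.53 to 1.78.

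**Figure D4:**
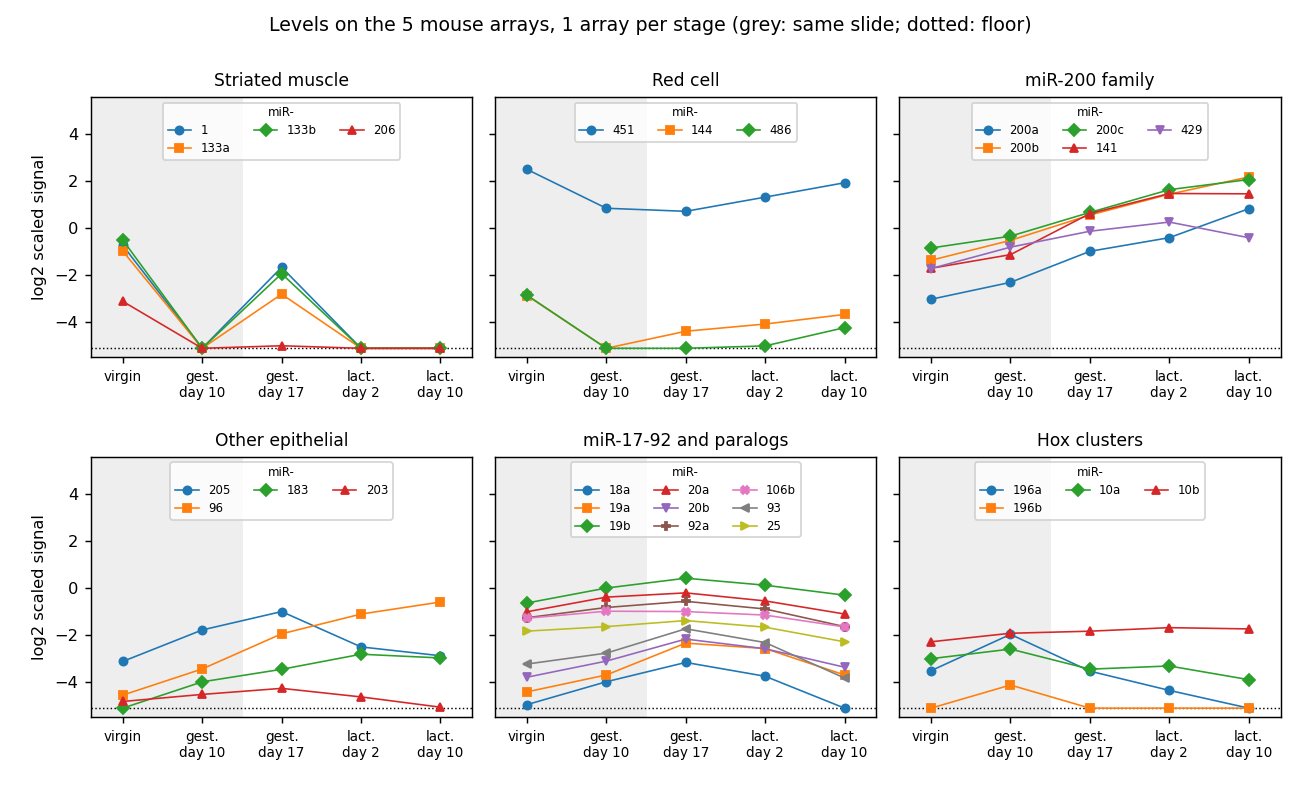
Log2 scaled signal on the 5 mouse arrays, 1 array per stage, with the 2 arrays of the shared slide on grey and the floor dotted. Muscle miRNAs are high in virgin gland and at gestation day 17, miR-200 family members lie between virgin gland and the later stages at day 10, and miR-196a is highest at day 10.

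miR-801 and miR-689 were the other miRNAs past 2-fold higher. The entry miR-801 has since been withdrawn as a miRNA because it overlaps the U11 small nuclear RNA of the minor spliceosome, so its probe need not report a miRNA. Its signals were 69.9 and 225, a difference of 1.46 ± 0.037, and it was at -4.88 at gestation day 17 and at the floor in lactation. miR-689 had 22.2 and 77.9, a difference of 1.58 ± 0.087, the largest of the 6. Only 1 of its 2 probes was above background on both arrays, and that probe gave 1.37. miR-689 was at -2.19 at lactation day 10, above its day 10 level of -3.17. The probe targets are given at chr4:131826064-131826078 and chr1:169270598-169270610.

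Just below the 2-fold mark on the higher side, in order, were miR-196b, miR-18a, miR-204, miR-429, miR-200b and miR-210. miR-204, from an intron of Trpm3, had signals of 16.4 and 39.2, a difference of 0.94 against the floor. miR-210, induced by HIF in low oxygen, had 35.8 and 73.9, a difference of 0.81 ± 0.052. miR-709 had 530 and 1022, a difference of 0.72 ± 0.009. miR-146b, a brake on signalling from Toll-like receptors, had 42.2 and 80.8, a difference of 0.71 ± 0.036. miR-148a, abundant in milk, had 177 and 309, a difference of 0.57 ± 0.017. Along the stages miR-148a was at -1.76, -1.18, 0.99, 2.00 and 2.09, and miR-146b at -3.83, -3.12, -0.85, 0.43 and 1.95. At day 10 both were nearer to virgin gland than to gestation day 17.

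Of 15 miRNAs abundant in milk, 14 were detected. Of these, 10 were above 0 and 4 below 0, against 56.1% and 26.8% of all 164. None was past 2-fold, against 9.15% of all 164, and the median was 0.10 with a range of -0.52 to 0.72. The lowest was miR-22, with signals of 1409 and 1155 and a difference of -0.52 ± 0.017. miR-21, linked to tumour growth and to wound repair, had 3700 and 3961, a difference of -0.13 ± 0.011 once the arrays were scaled. miR-30a was at 0.00, miR-30d at 0.09 and miR-26a at -0.08. miR-191 was not detected.

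Of 17 miRNAs with a published role in mammary development, 11 were detected, with a median of 0.23. miR-205 was past 2-fold higher and miR-206 past 2-fold lower, against 3.66% and 5.49% of all 164. miR-212, reported to act in duct growth through the stroma, had 28.7 and 40.5, a difference of 0.26 ± 0.072, and its partner miR-132 was not detected. miR-126-3p was at 0.23 and miR-101a at 0.08.

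The stroma and fat showed smaller differences than muscle or red cells. Of 5 fibroblast and smooth muscle miRNAs all were detected, with a median of 0.14, and none was past 2-fold, against 9.15% of all 164. miR-143, of smooth muscle, had signals of 111 and 197, a difference of 0.60 ± 0.025, while miR-145 from the same precursor lay at the floor on both arrays. miR-214 was at -0.18, miR-199b at 0.14 and miR-199a-5p at 0.20. Of the 6 adipocyte-associated miRNAs 5 were below 0, against 26.8% of all 164. The miRNAs below 0 were 44 of all 164, or 44 of the 136 above the floor on at least 1 array. The median of the 6 was -0.12, although with other scalings, such as none, it lay above 0. Relative to the median of all miRNAs it stayed below 0 under every setting, from -0.35 to -0.05. miR-378, from an intron of Ppargc1b, had 128 and 129, a difference of -0.22 ± 0.017, and miR-193 was at -0.24. miR-193b, linked to brown fat formation, was the exception at 0.33. The endothelial miR-126-3p had 1125 and 1553, a difference of 0.23 ± 0.007. None of these differences reached 1.5-fold except that of miR-143.

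The let-7 family, which holds cells in a differentiated state and represses Ras and Hmga2, differed least of the larger families. All 9 members were detected, from 0.00 for let-7e to 0.15 for miR-98, with a median of 0.11. These values are too close to 0 for a direction, since the authors' scaling gave the family a median of -0.75. The miR-30 family of 5 had a median of 0.15, the miR-29 family of 3, which represses collagens, 0.02, the miR-26 family of 2 a median of 0.00, and the 5 miRNAs of the miR-99/100 and miR-125 families 0.01. The miR-23/27/24 clusters had a median of 0.22 over 5. None of these 20 miRNAs was past 2-fold, against 9.15% of all 164, so few would be past it at that share.

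In the miR-15/16 seed family, which restrains the cell cycle, the members lay on both sides of 0. miR-195 was at 0.49 ± 0.025 and miR-497 at 0.34, both from chromosome 11. miR-15a was at -0.15 and miR-16 at -0.18, and miR-15b was at 0.37. On the X chromosome miR-322 was at 0.18 and its neighbour miR-503 at -0.43 ± 0.081. The median of the 7 was 0.18.

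The smaller families had few measured members. miR-130a was at -0.17 and miR-301a at 0.45. miR-152 was at -0.26, opposite to its seed relative miR-148a. In the miR-181 family, which acts in lymphocyte development, miR-181a was at 0.21 and miR-181c at 0.54, and miR-181b and miR-181d lay at the floor on both arrays. miR-221 lay at the floor on both arrays, as did miR-101b.

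Neighbouring miRNAs were set side by side. Grouping miRNAs whose probe targets in mm9 lie within 10 kb of the next gave 30 clusters with at least 2 detected miRNAs, holding 85 of the 164. In 14 of the 30 all detected members had the same sign, 9 above 0 and 5 below 0. Of all 164 miRNAs 56.1% were above 0 and 26.8% below 0. Some of the 14 held only both arms of the same hairpin, such as miR-378 and miR-378*. Whether neighbours shared a sign more often than unrelated miRNAs was not tested. Of the 9 miRNAs past 2-fold lower, 7 lay in 4 of the 30 clusters. Both arms of a hairpin were detected for 7 hairpins. miR-378 and miR-378* differed alike, at -0.22 and -0.19, and so did miR-140 and miR-140*, at -0.09 and -0.24. miR-125a-3p was at 0.57 and miR-125a-5p at -0.10. Here the 3′ arm lay at the floor in virgin gland. None of the 9 detected minor arms was past 2-fold, against 9.15% of all 164, so few or none would be past it at that share.

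The 10 miRNAs with the highest mean level were let-7a, let-7b, let-7c, let-7f, let-7i, miR-126-3p, miR-199b, miR-21, miR-451 and miR-720. Their differences ran from -1.66, for miR-451, to 0.23, for miR-126-3p. miR-720, now held to be a transfer RNA fragment, had 3079 and 2771, a difference of -0.38 ± 0.009. Among these 10, miR-451 was the only one past 2-fold, a share close to the 9.15% of all 164.

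Both counts depended on the scaling. With no scaling 15 were higher and 9 lower, so the higher share of those past 2-fold was 62.5% against 40% here. With the 75th percentile of all mouse miRNAs it was 10 and 9 (52.6%). In the authors' deposited table none was higher and 34 were lower, and with normexp none was higher and 5 were lower. All 9 lower miRNAs were among the lower ones of the authors' table and of the unscaled signals.

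**Figure D5:**
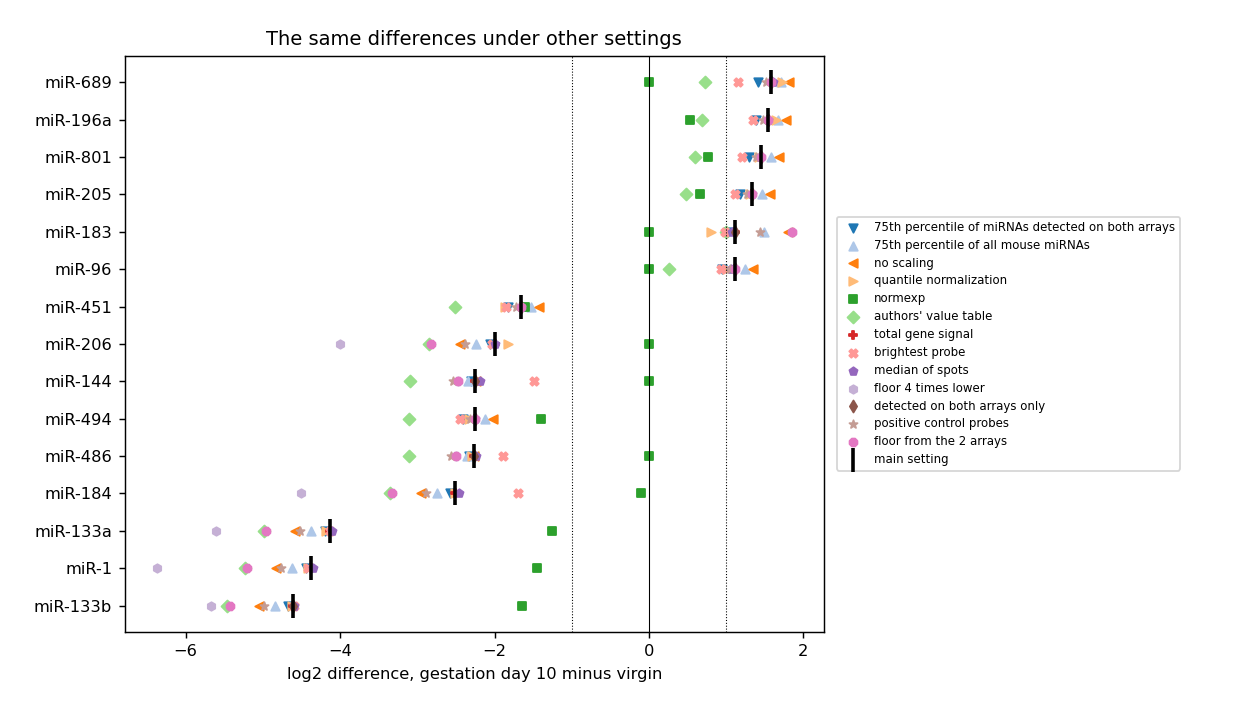
Log2 difference (gestation day 10 minus virgin) of the 15 miRNAs past 2-fold, with the setting used here as a black bar and 13 other settings as symbols; dotted lines mark 2-fold. miR-133b, miR-494 and miR-451 lie below the lower line under every setting, and so do miR-1 and miR-133a except among miRNAs detected on both arrays, where they have no value, whereas none of the higher miRNAs lies above the upper line in the authors' value table or with normexp.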

How the data were processed

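Total RNA (100 ng, RNA integrity number of 6 or more) was labelled with Cy3, per the labels' protocols. The deposited scanner files hold intensity in arbitrary units, background-subtracted within each array per the file headers (Agilent Feature Extraction 10.5.1.1; 9.5 per the submitters' processing notes). Flags of detection, background and outliers are the software's other values, per the file headers. Outlier spots were left out (2.47% and 2.80% of 11340), spots averaged per probe, probes per miRNA, and each array divided by the 75th percentile of 94 miRNAs detected on all 10 arrays. Values under 0.029, the highest over the arrays of the 5th percentile of detected miRNAs, were set to that floor, and log2 taken. A miRNA was well above background where at least 0.5 of a probe's spots were flagged so. Probe positions are mm9, per the file headers. The analysis used Python 3.11.15, R 4.3.3 and limma 3.58.1 (normexp) and was tested on simulated data. The value table the authors deposited is an intensity too, equal to the total signal per miRNA times 3.19 (virgin) and 1.49 (day 10), with column medians of -11.2 and -5.06. The basis of these constants, and so the scale between its arrays, stayed unknown. Named miRNAs were the 12 largest differences each way, the 10 brightest, list members and partner arms. The members and the 29 lists were chosen with earlier results of these data known. No test was possible.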

Additional observations from a re-analysis of the deposited data

Results flagged for a closer look

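Among probes outside the mouse miRNAs, that for mghv-miR-M1-2, a miRNA of a mouse gammaherpesvirus, was called detected, with signals of 21 in virgin gland and 25.3 at day 10 against negative controls of 2.42 ± 3.33 and 3.00 ± 3.75 (SD over spots). It was the 1 of 10 viral miRNAs called detected on these arrays. Every other array of the series, those of sheep included, also had 1 of the 10 called detected. Whether the signal came from a virus was not tested. Scaled, the levels were 0.0351 and 0.0360.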

How the results depend on the processing

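With 13 alternatives, 2 of them (scaling on 5 positive control probe sets, and a floor from the 2 arrays) chosen after seeing the data, no named miRNA past 2-fold turned its sign. The count of higher miRNAs was 10 with the 75th percentile of all mouse miRNAs, 15 with no scaling, 15 with a floor 4 times lower, 10 with the floor from the 2 arrays, and 0 with normexp and in the authors' value table. The count of lower ones was 5 with normexp, 5 among miRNAs detected on both arrays (fewer miRNAs were compared), and 34 in the authors' table. The median of all miRNAs was 0.22 with the percentile of all mouse miRNAs, 0.33 with no scaling and -0.64 in the authors' table. The striated muscle median was -1.25 with normexp, -4.99 in the authors' table, -5.61 with the lower floor and -4.96 with the floor from the 2 arrays. With normexp the red cell and further epithelial medians were 0. In the authors' table, where 1 constant per array shifts all miRNAs, medians were -3.10 (red cell), -0.62 (endothelial), -0.14 (miR-200), -0.66 (fibroblast), -0.98 (adipocyte), -0.75 (let-7), -0.23 (miR-17-92), -0.68 (miR-15 and miR-16), -0.84 (miR-29), -0.76 (miR-30), -0.63 (miR-23, miR-27 and miR-24), -0.85 (miR-26 and, apart, miR-99, miR-100 and miR-125), -0.16 (miR-10 and miR-196), -0.72 (miR-130 and miR-301), -0.70 (miR-148 and miR-152), -0.59 (miR-132 and miR-212, and, apart, mammary-studied), -1.35 (Dlk1-Dio3) and -0.76 (milk). With the lower floor the neural median was -0.89 and that of miR-181 0.80. The cause of the other moves was not tested. Of all values recomputed, 1749 stayed within their limits, 197 moved past them and 3 reversed. Scaling on spike-in probes was not run, since they lay at background on both arrays. No paired analysis was possible because each stage has 1 array, and for the same reason no replicate could be left out. Dim miRNAs are limited by background: 28 of the 164 lay at the floor on both arrays.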

Other observations

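The day 10 array held the highest of the 5 mouse levels for 38 of the 164 miRNAs and the lowest for 7. The virgin array held the highest for 29 and the lowest for 36. For 37 miRNAs both arrays stood above the other 3 mouse arrays, by at least 1 on the log2 scale for 6 of them (miR-214, miR-801, miR-338-3p, miR-199b*, miR-199b and miR-99a). For 35 both stood below, by at least 1 for 10 of them (miR-30b, miR-200c, miR-141, miR-200b, miR-148a, miR-200a, miR-96, miR-181b, miR-181a and miR-146b). miR-214, a miRNA of fibroblasts and bone that lies in Dnm3os, was at -1.91 and -2.09 on these 2 arrays, -3.996 at gestation day 17, -5.09 at lactation day 2 and at the floor at lactation day 10. The slide and the later stages cannot be told apart in these comparisons. Over the 208 miRNAs detected on any mouse array, the virgin and day 10 arrays had a Pearson r of 0.94, the third of 10 pairs, as a description over miRNAs that share a scale and a floor.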
